A study of Mus musculus with 6 samples.

Results

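The 2 arrays numbered replicate 3, which comprise 1 array of the fluoxetine group (FLX) and 1 of the vehicle group (VEH), were set against the 4 arrays numbered replicate 1 or 2 in a series of 6 arrays. The split was chosen from the measured values, since the replicate 3 arrays stood apart from the others in the same table. Every difference between replicate 3 and the other replicates is therefore a description without a test. Each array held RNA pulled down with tagged ribosomes from mouse cortex. All 6 arrays came from S100a10 bacTRAP mice, in which a bacterial artificial chromosome with the S100a10 driver makes a tagged ribosomal protein, crossed to a p11 knockout, so the controls are labelled as lacking p11 as well. The mice had been backcrossed for 3 to 5 generations to C57BL/6 from FVB. FLX mice drank 0.167 mg/ml fluoxetine, a selective serotonin reuptake inhibitor, in 1% saccharin for 15 to 18 days, and VEH mice drank 1% saccharin for the same time. The driver tags every cell type in which it is active. The titles call the replicates biological, but the labels do not say which animals, day or litter a replicate number stands for. Age and sex were not given, and each treatment has only 1 replicate 3 array.

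Translating ribosome affinity purification (TRAP) recovers mRNA attached to tagged ribosomes, which report translation in the cells that express the tag. The cortex is wrapped in the leptomeninges, thin membranes of fibroblast-like and barrier cells that secrete collagens and proteoglycans and carry many solute transporters. Blood vessels entering the cortex bring pericytes, smooth muscle and endothelium, and microglia are its resident immune cells. Messenger RNAs for secreted and membrane-spanning proteins are translated on the endoplasmic reticulum, whereas those for cytosolic and nuclear proteins are translated on free ribosomes.

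In both replicate 3 arrays the transcripts of leptomeningeal and mural cells, lysosomal enzymes, antigen presentation and interferon response were several-fold lower than in the other 4 arrays. Transcripts of several neuronal and oligodendrocyte transcription factors, such as Bcl11b, Olig2 and Sox10, and of myelin basic protein were higher. In each of 12 neuronal and glial gene lists the members with membrane or secreted products had a lower median difference than those with cytosolic or nuclear products. The first median was below 0 in 9 of these lists, and the second above 0 in 11. The division was made by hand after the values were seen. Some genes with membrane-anchored products or precursors, all with positive differences, were placed in neither class. The first median rests on 1 gene in the general pyramidal list, and the second on 3 genes each in layer 5a and microglia. In bulk RNA of this kind, fewer cells of a type and less RNA per cell cannot be told apart.

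The deposited values are linear intensities, and differences are given as log2 of the replicate 3 value minus the mean log2 of replicates 1 and 2 of the same treatment, averaged over FLX and VEH. A probe set, the array's unit for a transcript, was analysed if its mean in FLX or VEH was at least 50. It was called higher or lower if it differed by at least 2-fold in each treatment and both replicate 3 arrays lay beyond all 4 others. Of 22200 probe sets analysed, 1251 (5.64%) were called higher and 3250 (14.6%) lower in replicate 3. The same rule applied to replicate 2 against replicate 1 called 19 (0.0856%) higher and 10 (0.0450%) lower. Over genes, each by its brightest probe set, 617 of 12214 (5.05%) were called higher and 2015 (16.5%) lower. With the other replicate 3 array alone, 2390 probe sets were called higher without FLX replicate 3 and 2007 without VEH replicate 3. The shares above are the background against which the counts below are given. Centring each array on its median moves the median difference up by 0.15 and changes the share of called probe sets that are lower from 72.2% to 61.7%, that is to 1794 higher and 2895 lower. At the edge of the rule, Sorl1 (-1.1079 in FLX and -1.0001 in VEH) and Ttc26 (1.0016 and 1.1980) lay just inside, and Maf, by 1 of its probe sets (-0.9998 and -1.1384), and Narf (1.2652 and 0.9994) just outside.

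**Figure D1:**
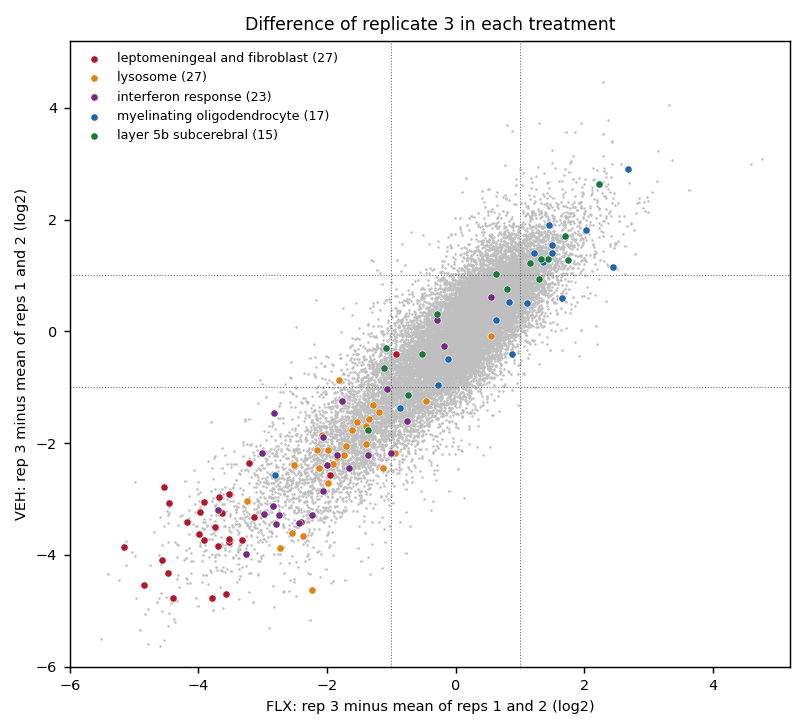
Each grey point is 1 of 22200 probe sets, placed by the difference between replicate 3 and the mean of replicates 1 and 2 in FLX (horizontal, log2) and in VEH (vertical, log2), and coloured points are members of 5 gene lists by their brightest probe set. Dotted lines mark 2-fold. Leptomeningeal genes lie at the lower left and myelinating oligodendrocyte genes mostly at the upper right.

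The separation was broad and not limited to a few transcripts. The median absolute difference was 0.579 for replicate 3 and 0.135 for replicate 2 against replicate 1. A median of 71.5% of a probe set's variation over the 6 arrays lay along replicate 3 against the rest, 5.57% along treatment and 2.40% along replicate 2 against 1. Among called probe sets 465 were at least 8-fold lower and 8 at least 8-fold higher. Of all probe sets called lower, 637 were under 50 in both replicate 3 arrays and so passed the limit through the other arrays, as did 167 of the 465, which leaves 298. Of those called higher, 83 were under 50 in the other 4 arrays, with 0 among the 8. None of the 5112 genes with several analysed probe sets had probe sets called in opposite directions. Medians over all probe sets ran from 38.5 to 41.9 per array. The 3′ to 5′ difference of the control probe sets, a sign of RNA degradation and amplification, was 1.83 in both replicate 3 arrays and 1.99 to 2.32 in the others for Gapdh. For Actb it was 2.32 and 2.56 in replicate 3 and 2.18 to 2.34 in the others. For Pcx, whose 5′ probe set is dim, it was 4.11 and 4.28 in replicate 3 and 3.63 to 4.06 in the others, so that both replicate 3 arrays were above the rest. The part of RNA quality in the differences below was not tested.

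S100a10, the gene that encodes p11 and is knocked out according to the labels, had 3 probe sets, and 2 of them were below 50 in every array. The third, of a type that can match more than 1 transcript, read 2222 and 2037 in FLX replicates 1 and 2, 3111 and 2248 in VEH replicates 1 and 2, and 349 and 643 in replicate 3 of FLX and VEH. Both replicate 3 values lay below all others, with an averaged difference of -2.33. The same order of arrays is used for the values below. A bright value of this gene goes against the label in all 6 arrays, by this probe set alone, and which transcript it reads was not tested.

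Stretches of 3 promoter windows are shown because the interferon response, 1 of the programmes with the lowest levels in replicate 3, has a known control element near its gene starts. The core of the interferon-stimulated response element, GAAANNGAAA on either strand, was searched in the RefSeq promoter windows of GRCm38.p6, which run from 250 bases before to 50 after each gene start. It was found for 14 of the 19 analysed interferon list genes with a window (73.7%), and for 3.99% of 27025 genes. The cyclic AMP response element TGACGTCA was found for 2 of 20 genes of the activity-regulated early gene list and for 2.03% of all genes. The stretches below, each on the gene's strand with the match in capitals, belong to the genes of the list with the lowest averaged difference among those with a match.
Gbp2, chr3:142620589-142620628, plus strand, match on the opposite strand: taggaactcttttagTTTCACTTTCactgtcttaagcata
Ifitm3, chr7:141010718-141010757, minus strand: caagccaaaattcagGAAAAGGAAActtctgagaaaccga
Ifit1, chr19:34640770-34640809, plus strand, match on the opposite strand: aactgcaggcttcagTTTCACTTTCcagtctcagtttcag
A match describes the letters of the window and is not a measured binding site.

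Leptomeningeal transcripts made up the lowest programme. Of 28 genes in the list 27 were analysed and 26 were called lower, with a median difference of -3.66 against -0.01 over all genes. Ogn, an extracellular matrix proteoglycan, read 7182, 13969, 11613 and 12110 in replicates 1 and 2 and 349 and 510 in replicate 3. Slc22a6, an organic anion transporter, read 1109, 2532, 1915 and 2290 against 47.2 and 144. Both replicate 3 arrays were far below the lowest other array for both genes, which were picked as among the most different of the list. Fmod, which binds collagen fibrils, was among the brightest of the list at 22240 to 41495, and read 1318 and 4867 in replicate 3. The FLX replicate 3 array was thus the lower of the pair for this gene, with a difference of -4.53 in FLX and -2.79 in VEH.

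The low level was not limited to genes for secreted or membrane products in this list. The 6 analysed members with nuclear or cytosolic products were all called lower, with a median of -3.41, and the 21 with secreted or membrane products had a median of -3.77. Foxd1, a transcription factor of meningeal cells, read 11728, 14607, 21499 and 17162 in replicates 1 and 2 and 1018 and 2447 in replicate 3. Aldh1a2, which makes retinoic acid, read 12422, 15525, 17049 and 15043 against 1032 and 1405. The groups did not overlap for either gene. Col1a1 was the exception in the list, at 44.9 to 93.5 in replicates 1 and 2 and 34.6 and 40.5 in replicate 3, near the lower limit of analysis, whereas Col1a2 was lower by 3.44 on the log2 scale (difference -3.44).

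The collagen family as a whole followed with less depth. Of 42 genes 25 were analysed, 13 were called lower and 1 higher, and 8 of the 25 were under 50 in both replicate 3 arrays, so that they entered the analysis through the other arrays. Their median was -1.23, and -0.15 over all 42 with no filter. Col4a5, a basement membrane collagen, read 157, 438, 277 and 342 in replicates 1 and 2 and 17.7 and 20.4 in replicate 3. Col22a1, found at tissue junctions, was the member called higher, with 97.6 to 137 in the other arrays and 280 and 233 in replicate 3. Its other probe set had a difference of -0.22.

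Several genes of other lists that meningeal cells also make were also low. Bmp4, Bmp5, Bmp6 and Bmp7, secreted bone morphogenetic proteins, had differences of -4.01, -4.05, -4.13 and -4.12. In the list of these ligands, added after the values were seen, 5 of 6 analysed genes were called lower. The member least changed had a difference of -0.81. Bmp6 read 1912, 3882, 3119 and 3553 in replicates 1 and 2 and 148 and 200 in replicate 3. Zic1, a transcription factor of cerebellar granule neurons and meninges, read 20513 to 31061 in the other arrays and 4225 and 5853 in replicate 3. Klf4, listed among early response genes, read 6014, 8008, 10723 and 9471 against 568 and 1180.

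Genes of smooth muscle and pericytes were mostly lower, to differing extents. Of 19 list members 9 were analysed, of which 7 were called lower and 1 higher. The median was -3.21 over these 9 and -0.24 over all 19 with no filter, where dim genes enter. Tagln, a smooth muscle actin-binding protein, read 1087, 1000, 2150 and 1213 in replicates 1 and 2 and 82.8 and 126 in replicate 3. Pdgfrb, the growth factor receptor of pericytes, read 955, 2353, 2072 and 2298 against 91.0 and 195. Acta2, smooth muscle actin, had a difference of -2.24, and Mylk and Lmod1, of the contractile apparatus, -1.42 and -1.24. Rgs5, a G protein regulator used as a pericyte marker, went the other way, with 495, 270, 475 and 367 against 1427 and 1220. It was above all 4 other arrays in both replicate 3 arrays, so the list did not move as 1 block.

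Endothelial genes were split. Of 28 genes 17 were analysed and 7 were called lower, with a median of -1.26, which was -0.89 with no filter. Abcb1a, the efflux pump of the blood-brain barrier, read 314, 899, 574 and 884 in replicates 1 and 2 and 44.7 and 51.7 in replicate 3. Slc2a1, the glucose transporter of barrier endothelium, read 994 to 1139 against 480 and 747, a difference of -0.83. Cldn5, a tight junction protein, was dim, at 68.8 to 109 against 50.6 and 23.3, and Pecam1 was below 8 in every array and was not analysed.

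Microglial genes differed among themselves more than leptomeningeal ones. Of 24 genes 20 were analysed and 8 were called lower, with a median of -1.27 that was -0.91 without VEH replicate 3. Tmem119 read 278, 591, 365 and 548 in replicates 1 and 2 and 50.7 and 34.0 in replicate 3, and Ptprc, the leukocyte phosphatase CD45, read 87.3, 170, 80.5 and 207 against 9.79 and 8.96. Both were named as among the most different members of the list, so their wide gap below all other arrays follows from that choice. Of the 20 genes 2, Ptprc among them, were under 50 in both replicate 3 arrays and entered through the other arrays. Csf1r, the receptor for colony stimulating factor 1, read 839, 1239, 774 and 1358 against 989 and 918, and Cx3cr1, the fractalkine receptor, read 213 to 229 against 280 and 241. The values of Csf1r overlapped between replicate 3 and the others, and Cx3cr1 was slightly higher in replicate 3.

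Antigen presentation genes, which load peptides on major histocompatibility molecules, were among the lowest, with 11 of 12 analysed members called lower and a median of -3.26. H2-Aa, a class II chain, read 2854, 4497, 3513 and 4704 in replicates 1 and 2 and 181 and 368 in replicate 3. Psmb8, a subunit of the interferon-induced immunoproteasome, read 387 to 491 against 107 and 21.4, and Psmb9 read 409 to 556 against 101 and 131. Both lay below every other array. They were the only 2 of 37 analysed proteasome subunits called in either direction, and the median of all 37 was 0.20.

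Of 31 interferon response genes 23 were analysed and 18 were called lower, with a median of -2.15. Gbp2, an interferon-induced GTPase, read 1879, 2914, 3720 and 3044 in replicates 1 and 2 and 243 and 213 in replicate 3. Ifitm3, a membrane protein that restricts viral entry, read 6603, 7959, 9765 and 8235 against 563 and 980. Ifit1, which binds foreign RNA, read 624, 712, 700 and 721 against 95.4 and 64.8. In all 3 genes, picked as the most different of the list, replicate 3 was below the other arrays. Stat2, a transducer of the interferon signal, had a difference of 0.59, and Rsad2 of -0.05. The 14 genes with the response element in their window, Stat2 and Rsad2 among them, had a median of -2.10. The 5 without it had a median of -1.18.

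**Figure D2:**
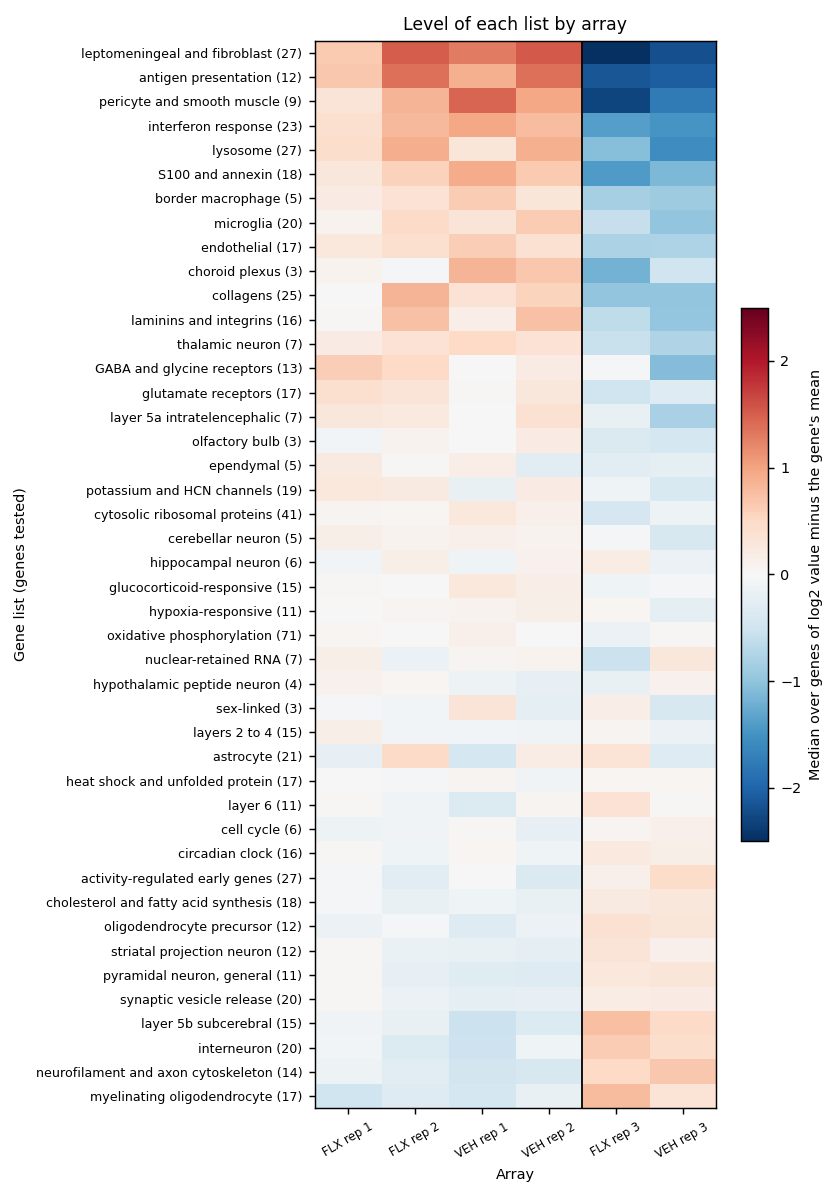
Each row is a gene list with its number of analysed genes, each column an array, and the colour the median over the list's genes of the log2 value minus that gene's mean over the 6 arrays. Rows are ordered by the difference of replicate 3, which lies to the right of the black line: leptomeningeal genes are at -2.66 and -2.20 there and at 0.65 to 1.54 in the other arrays.

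Lysosomal genes were lower nearly without exception. Of 30 genes 27 were analysed, 23 were called lower, and 26 had negative differences in both treatments. Lamp2, a lysosomal membrane protein, read 6572, 12214, 8423 and 11518 in replicates 1 and 2 and 944 and 1199 in replicate 3. Ctsb, a lysosomal protease, read 7443 to 10981 against 2654 and 1735. The groups did not overlap for either. The 1 member without a negative averaged difference was Atp6v1h, a subunit of the proton pump that sits on the cytosolic face, with 6753 to 8613 in the other arrays and 11725 and 6401 in replicate 3.

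Of 17 analysed genes of heat shock and the unfolded protein response 4 were called lower (23.5%) and 0 higher, with a median of 0.12. Hspa5, the main chaperone of the endoplasmic reticulum, read 8262, 10985, 7491 and 10741 in replicates 1 and 2 and 2284 and 966 in replicate 3. Its other 2 probe sets had differences of -2.83 and -0.14. Herpud1, which serves degradation at the endoplasmic reticulum, read 1493 to 1942 against 693 and 509. The cytosolic chaperones Hspa8 and Hsp90aa1 had differences of 0.33 and 0.12. Hspb1, a small cytosolic heat shock protein also abundant in smooth muscle, read 3708 to 6189 against 444 and 1142. Xbp1, a transcription factor of the unfolded protein response, was the fourth called lower, at 5236 to 6782 against 2403 and 1701. The calls in this list thus included 2 cytosolic or nuclear products.

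Members of neuronal and glial lists differed in replicate 3 when divided by where their protein resides, a division from textbook knowledge chosen after the values were seen. In the 12 neuronal, astrocyte, oligodendrocyte, microglial and synaptic vesicle lists together, 86 analysed genes with secreted or membrane-spanning products had a median of -0.68, with 25 called lower and 3 higher. The 88 with cytosolic or nuclear products had a median of 0.94, with 0 called lower and 34 higher. Over all genes the shares were 16.5% lower and 5.05% higher. Genes placed in neither class, which also have membrane-anchored products or precursors, were left out of both groups, and all had positive differences. Each lies above the median of the secreted or membrane-spanning group, so leaving them out favours a low median there. The genes left out were Stx1a (0.29), Vamp1 (0.65), Vamp2 (0.12), Otof (0.98), Rprm (0.76), Syndig1l (1.18) and Myrf (1.67). Syndig1l and Myrf were called higher. The membrane and secreted members had positive medians in 3 lists, with 0.29 for interneurons, 0.15 for oligodendrocyte precursors and 0.41 for myelinating oligodendrocytes, and the cytosolic and nuclear members a negative one in microglia, at -0.22. In the 8 neuronal lists alone the medians were -0.79 over 40 genes and 0.90 over 65. Without 8 of the genes that meningeal cells also make (Bmp4, Pdgfra, Ndnf, Gja1, Gjb6, Cldn11, Ccn2 and Penk) the medians of the 12 lists were -0.50 over 78 genes and 0.94 over 88.

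**Figure D3:**
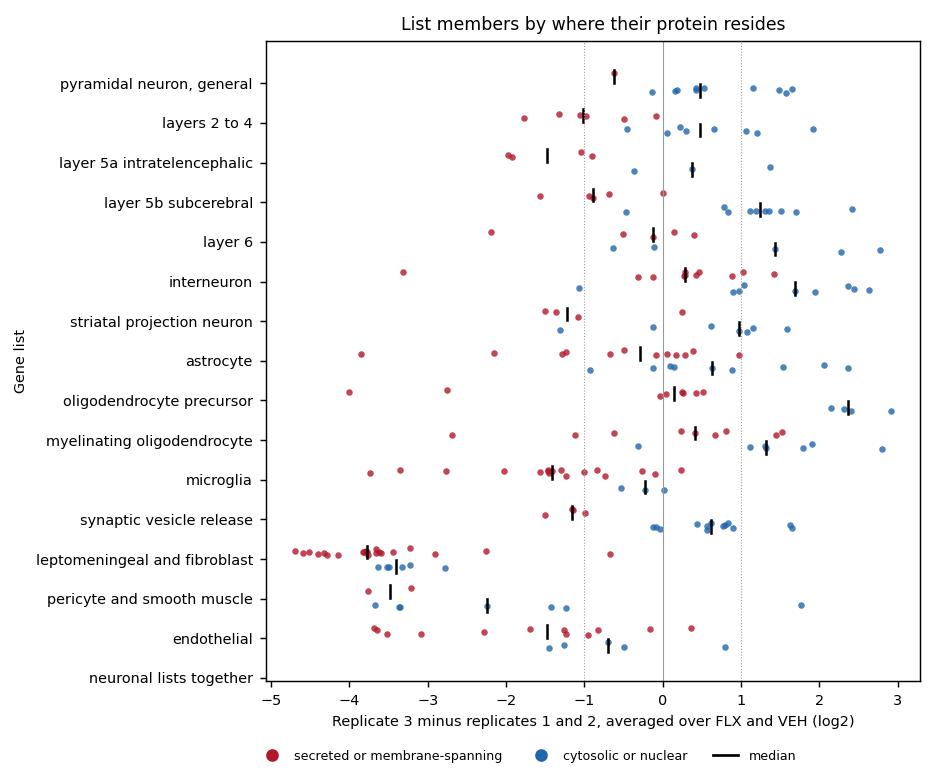
Each point is a gene, placed by its difference between replicate 3 and replicates 1 and 2 averaged over FLX and VEH (log2). Rows are lists, and the colour gives the location of the protein. Black bars are medians and dotted lines mark 2-fold. Genes placed in neither class are not drawn. Red points (secreted or membrane-spanning) lie to the left of blue points (cytosolic or nuclear) in most lists, for example -1.16 against 0.62 in medians for synaptic vesicle release, while in the leptomeningeal list both lie at the far left.

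Synaptic vesicle release had 2 of 20 analysed genes called higher and 3 lower. The share called lower was under the 16.5% of all genes, and the share called higher was above the 5.05% of all genes. The 4 members classed as membrane-spanning, Syp, Syt1, Sv2a and Sv2b, had differences of -1.50, -1.16, -1.15 and -0.99. Stx1a, Vamp1 and Vamp2, which are also anchored in membranes, were put in neither class. Their differences were 0.29, 0.65 and 0.12, opposite in sign to those 4. Syp, synaptophysin, read 7010, 7081, 4944 and 6292 in replicates 1 and 2 and 2588 and 1889 in replicate 3. Unc13a, which primes vesicles from the cytosolic side, read 183, 202, 129 and 165 against 436 and 617. Cplx2, a cytosolic regulator of fusion, read 3753, 3525, 2781 and 3424 against 10381 and 10635. Replicate 3 lay below all others for the first and above all others for the latter pair, and the 13 cytosolic members had a median of 0.62. Unc13a and Cplx2 were the members called higher, and Bsn, Pclo and Snap25 had differences of -0.08, -0.12 and -0.03.

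Among 17 glutamate receptor subunits 5 were called lower (29.4%, against 16.5% of all genes) and 0 higher. Grm2, a presynaptic metabotropic receptor, read 878, 961, 601 and 931 in replicates 1 and 2 and 239 and 257 in replicate 3. Among 13 genes of GABA and glycine receptors 4 were called lower (30.8%) and 1 higher (7.69%, against 5.05% of all genes). Glrb, the glycine receptor beta subunit, read 13128, 15256, 12396 and 13935 against 3765 and 2382. Gphn, gephyrin, the cytosolic scaffold that holds these receptors, was the one called higher, with 1162, 952, 882 and 923 against 2603 and 2774 by its brightest probe set. Its other 2 probe sets disagreed, at 1.90 and -1.17. Of 19 potassium and HCN channel genes 1 was called higher (5.26%, near the 5.05% of all genes). In that list 0 were called lower, against 16.5% of all genes. The gene called higher was Kcnab2, a cytosolic beta subunit, with 779 to 1194 against 2808 and 5804.

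Genes of layer 5 projection neurons, a known site of S100a10 expression, lay on both sides. In the list for layer 5b 6 of 15 analysed members were called higher and 1 lower. Bcl11b, the transcription factor CTIP2, read 1628, 1549, 1228 and 1594 in replicates 1 and 2 and 5350 and 3393 in replicate 3, and Pou3f1, another transcription factor of these cells, read 390, 287, 243 and 383 against 1554 and 1883. Fezf2, which specifies subcerebral neurons, read 1283, 912, 793 and 886 against 1679 and 1707, a difference of 0.83 without overlap. Npr3, a membrane receptor for natriuretic peptides, was the one called lower, with 605, 865, 1141 and 1128 against 281 and 334. In layer 5a, Sulf2, a secreted sulfatase, read 1052 to 1378 against 406 and 270, while the nuclear Tcerg1l read 227 to 399 against 966 and 636. The other 2 probe sets of Sulf2 disagreed, at -2.15 and 0.64.

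In the list for layers 2 to 4, 2 of 15 analysed genes were called higher (13.3%) and 2 lower (13.3%, against 16.5% of all genes), with a median of 0.06. Cux2, a homeobox factor, read 1791, 1205, 1255 and 1333 in replicates 1 and 2 and 5038 and 5422 in replicate 3. Nectin3, an adhesion molecule, read 481, 680, 566 and 719 against 216 and 145. Slc17a7, the vesicular glutamate transporter of cortical pyramidal cells, read only 176 to 242 in the other arrays and 148 and 118 in replicate 3. In layer 6, Cplx3, a complexin, read 65.6 to 117 against 726 and 490, and Ccn2, a secreted matrix protein, read 3839 to 6092 against 999 and 1199.

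Of 20 analysed interneuron genes 6 were called higher and 1 lower, and 13 neither, with a median of 0.89. Dlx1, a homeobox factor, read 64.6, 50.5, 35.1 and 73.0 in replicates 1 and 2 and 436 and 253 in replicate 3. Pvalb, a cytosolic calcium buffer, read 689, 438, 512 and 607 against 3045 and 2664. Both were above every other array. Gad1, an enzyme of GABA synthesis, had a difference of 0.98. Sst, a secreted peptide, had 0.46, and Ndnf, secreted by layer 1 interneurons and meningeal cells, had -3.31.

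Of 12 analysed genes of oligodendrocyte precursors 4 were called higher (33.3%) and 2 lower (16.7%, near the 16.5% of all genes), with a median of 0.34. Olig1, Olig2 and Sox10, transcription factors of the lineage, had differences of 2.15, 2.32 and 2.41. Olig2 read 114, 108, 96.9 and 134 in replicates 1 and 2 and 731 and 432 in replicate 3. Bcas1, a cytosolic protein of differentiating oligodendrocytes, read 340, 299, 243 and 318 against 2778 and 1798. Replicate 3 lay above the others in both. Pdgfra, the receptor that marks precursors but also fibroblasts, was opposite, with 375, 980, 579 and 776 against 123 and 72.1, and Bmp4 was the other called lower. The other 6 members, among them Cspg4 at 0.26 and Gpr17 at 0.52, had differences from -0.04 to 0.52 and were not called.

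Of the myelin genes 8 of 17 analysed were called higher (47.1%) and 1 lower (5.88%, under the 16.5% of all genes). The median was 1.12, and 0.60 without FLX replicate 3. Mbp, myelin basic protein, whose mRNA is translated on free ribosomes, read 6046, 7364, 5620 and 7728 in replicates 1 and 2 and 27004 and 23131 in replicate 3. Ermn, a cytoskeletal protein of myelin sheaths, had a difference of 1.79. Mog, a membrane protein of the sheath surface, read 85.2 to 123 against 152 and 127, and Mag, a membrane adhesion protein, read 109 to 168 against 85.5 and 52.5. Cldn11, a tight junction protein of myelin and of the arachnoid barrier, was called lower, with 2128, 4136, 3530 and 3838 against 422 and 622. Opalin and Fa2h, membrane proteins as well, were not lower but had differences of 1.52 and 1.45.

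**Figure D4:**
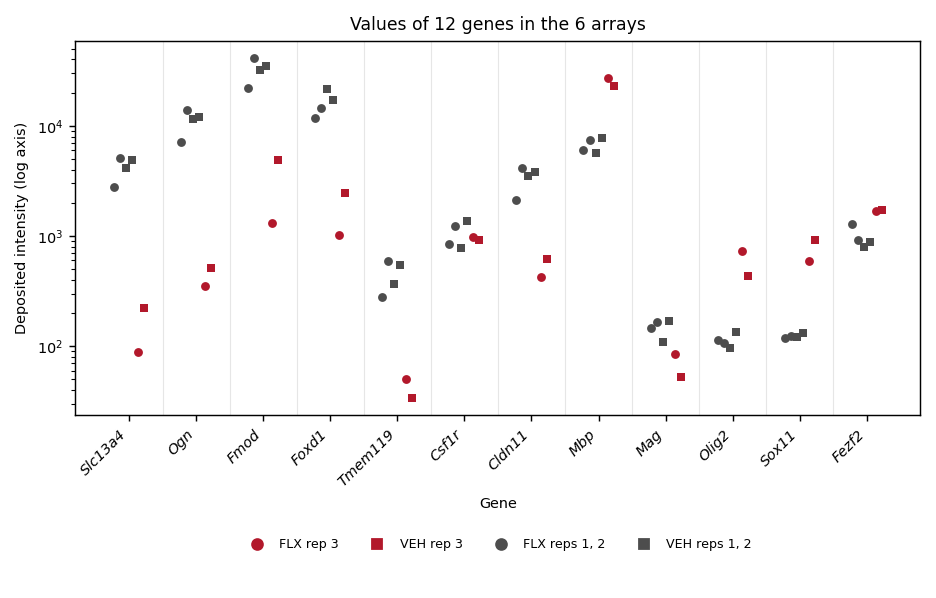
Deposited intensity (log axis) of 12 genes in the 6 arrays, by the brightest probe set of each. Red symbols are replicate 3 and grey symbols replicates 1 and 2; circles are FLX and squares VEH. Slc13a4, Ogn, Fmod, Foxd1, Tmem119, Cldn11 and Mag have both red symbols below all grey ones, Csf1r is mixed, and Mbp, Olig2, Sox11 and Fezf2 have both above.

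Of 21 analysed astrocyte genes 2 were called higher (9.52%, against 5.05% of all genes). A further 3 were called lower (14.3%, under the 16.5% of all genes), and the median was 0.09. Acsbg1, an acyl-CoA synthetase, read 463, 490, 263 and 250 in replicates 1 and 2 and 1920 and 1702 in replicate 3. Gfap, the intermediate filament protein, read 370, 372, 109 and 159 against 1546 and 547. Gjb6, the gap junction protein connexin 30, read 3762, 7062, 6385 and 7008 against 395 and 421, and Gja1, connexin 43, read 12010 to 20619 against 4183 and 3434. Both connexins are also made in the meninges. Aqp4, the water channel of astrocyte endfeet, overlapped between the groups, at 117 to 489 against 463 and 120.

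Families were also picked by symbol after the values were seen, so their medians describe the arrays and add no independent support. Of 168 analysed Tmem genes 76 were called lower and 1 higher, with a median of -1.11, and of 210 solute carriers 83 were lower and 1 higher, with a median of -1.02. Tetraspanins had a median of -1.52, receptor tyrosine phosphatases -1.13, cadherins and protocadherins -1.08, and Gpr receptors -0.86. Disintegrin metalloproteases had -1.06. The medians of potassium channel alpha subunits (-0.49) and of semaphorins and plexins (-0.39) were nearer the background. Of these, 2 of 38 (5.26%) and 8 of 27 (29.6%) were called lower, against 16.5% of all genes. Among families with cytosolic or nuclear products, 287 zinc finger Zfp genes had a median of 0.17. Of these, 10 were called higher (3.48%) and 6 lower (2.09%), both under the shares of all genes (5.05% and 16.5%). Translation initiation factors were at 0.09, Ppp phosphatases at 0.17 and proteasome subunits at 0.20, also near the background. RNA-binding Rbm and Hnrnp genes had 0.39, ubiquitin peptidases of the Usp type 0.39 and kinesins 0.59. Solute carriers include many that meningeal cells make, such as Slc6a20a, an amino acid transporter, which read 4568, 8615, 6402 and 7276 against 166 and 311.

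**Figure D5:**
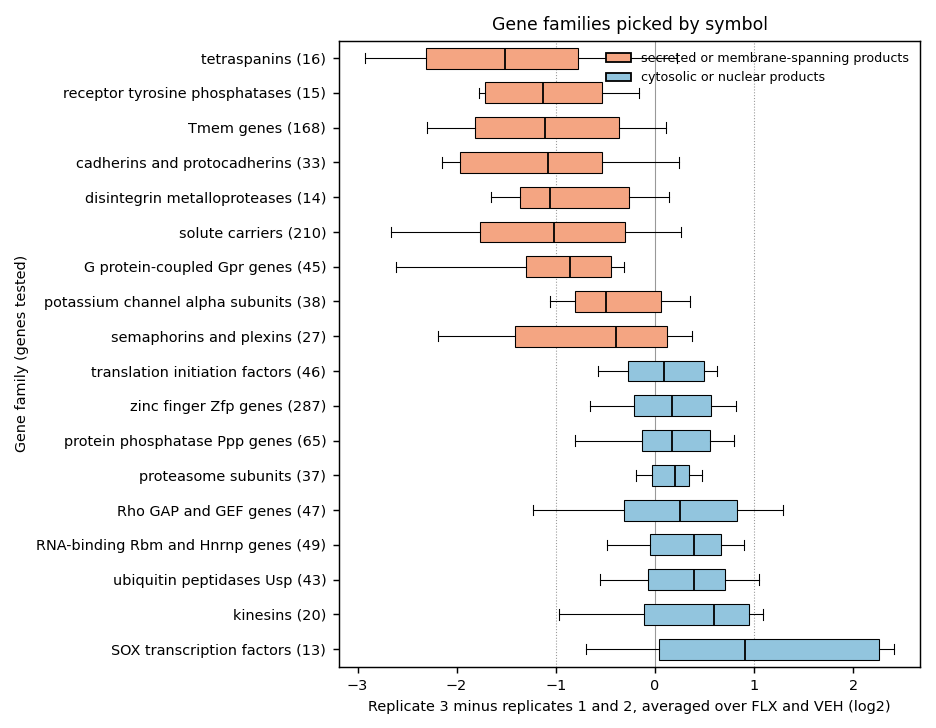
Differences between replicate 3 and replicates 1 and 2 (log2, averaged over FLX and VEH) for gene families picked by symbol, with the number of genes analysed. Boxes span the quartiles, the line is the median and whiskers run from the 10th to the 90th percentile. The membrane families have medians from -1.52 to -0.39 and the cytosolic or nuclear families from 0.09 to 0.91.

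In the SOX family of transcription factors, added after the values were seen, 6 of 13 analysed members were called higher and 0 lower, and 3 were negative in both treatments. Sox11, a factor of young neurons, read 118, 123, 122 and 132 in replicates 1 and 2 and 594 and 928 in replicate 3. Sox2, Sox5, Sox1 and Sox6 had differences of 1.84, 2.23, 2.26 and 2.62. Sox17 and Sox18, factors of endothelium, had differences of -0.70 and -1.45 and went the other way.

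Early response genes are transcribed within minutes of neuronal activity. Of 27 analysed, 7 were called higher (25.9%) and 2 lower (7.41%, under the 16.5% of all genes). Arc, a regulator of synaptic strength, read 833, 345, 855 and 633 in replicates 1 and 2 and 2466 and 4239 in replicate 3. Fos read 7167, 2305, 6597 and 3484 against 11711 and 12173. Both were above every other array, and in both the replicate 1 arrays were above the replicate 2 arrays. Egr1 differed by 0.33. The 2 called lower were Klf4 and Klf2, which are also vascular and meningeal factors.

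Of 18 analysed genes of cholesterol and fatty acid synthesis 3 were called higher (16.7%) and 2 lower (11.1%, under the 16.5% of all genes), with a median of 0.33. Fasn, the cytosolic fatty acid synthase, read 2414, 2438, 2048 and 1907 in replicates 1 and 2 and 5744 and 7384 in replicate 3. Sc5d, a sterol desaturase in the membrane of the endoplasmic reticulum, read 391, 441, 362 and 442 against 149 and 85.2. Neurofilament and axon cytoskeleton genes had a median of 0.91, and 13 of 14 were positive in both treatments. Ribosomal protein genes had a median of -0.32, with 1 of 41 called lower, and genes of oxidative phosphorylation -0.10, with 2 of 71. Both shares (2.44% and 2.82%) were under the 16.5% of all genes.

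The replicate 1 and 2 arrays were not uniform along the same programmes. FLX replicate 1 was the lowest of these 4 for 64.1% of the probe sets called lower and for 27.5% of all analysed. Its leptomeningeal list level was 0.65, against 1.30 to 1.54 in the other arrays of replicates 1 and 2. Ptgfr, a prostaglandin receptor and the gene with the lowest replicate 3 level relative to the rest, read 312, 657, 432 and 538 there and 9.91 and 10.6 in replicate 3. Ptgfr was picked for its low replicate 3 level, so its wide gap to the other arrays follows from that choice. Its other probe set had a difference of -2.92.

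Among single genes, the largest positive averaged difference was that of Phgdh, an enzyme of serine synthesis, by a probe set that read 31.8, 820, 462 and 570 in replicates 1 and 2 and 4373 and 4332 in replicate 3. The FLX replicate 1 value of that probe set stood far below the others, and the other 3 probe sets of the gene had differences of 1.48 to 1.93. Ewsr1, an RNA-binding protein, read 1159, 1699, 1186 and 1729 against 13887 and 23795. Apba2, a neuronal adaptor protein, read 186, 134, 141 and 154 against 1398 and 1370. In each of the latter pair both replicate 3 arrays were several-fold above all others, which follows from picking the largest differences.

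FLX and VEH gave similar differences, with some larger in 1 treatment. Of the probe sets called lower 68.3% had the larger difference in VEH, and of those called higher 58.4%. Cit, citron kinase, read 309 to 460 in replicates 1 and 2 and 2210 in FLX replicate 3 and 7915 in VEH replicate 3. Junb, an early response factor, read 117 to 179 against 512 and 1815. These 2 genes were higher in both treatments, and with 1 replicate 3 array each the gap between treatments has no replicate check.

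Among lists for tissue next to the cortex, 3 of 10 choroid plexus genes were analysed. The analysed share was larger for the striatal list (12 of 18) and the thalamic list (7 of 8). Ttr, the choroid plexus transport protein, read 110 to 201 in replicates 1 and 2 and 49.2 and 79.2 in replicate 3. The striatal list had 2 of 12 called higher (16.7%) and 1 lower (8.33%), against 5.05% and 16.5% of all genes. Rgs9 read 146 to 175 against 415 and 562, and Penk, a secreted neuropeptide precursor, 1732 to 3395 against 1295 and 673. Thalamic genes had 4 of 7 called lower (57.1%), including Slc17a6, a vesicular glutamate transporter, at 618 to 1016 against 401 and 184. Their part in the other differences was not tested.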

How the data were processed

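TRAP RNA from 6 cortex samples, amplified from 15 ng in 2 rounds, was measured on Affymetrix mouse arrays, per the labels' protocols. The deposited values are linear intensities. The submitters' processing notes name GCRMA as the authors' method, with version and settings not given in the sources used here; GCRMA includes quantile normalization in its standard form, which can hide a shift shared by most transcripts. Of 45101 probe sets, 64 controls were left out, and 22200 passed a mean of 50 in FLX or VEH. Because FLX and VEH means each hold 2 arrays of replicates 1 and 2 for 1 of replicate 3, the filter admits genes low in replicate 3 more readily than genes high there. Under 50 in both replicate 3 arrays were 2 of 27 leptomeningeal, 2 of 17 endothelial and 3 of 23 interferon response genes. So were 2 of 12 antigen presentation and 2 of 27 lysosomal genes. The platform annotation named 1 gene for 20192 of the probe sets analysed. A gene in a list is represented by its brightest probe set.

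Differences were computed with Python 3.11.15, pandas 2.3.3 and numpy 2.4.6 and drawn with matplotlib 3.10.9. The computation was tested on simulated data. No significance test was run, since the split was chosen from the values. The members and lists were chosen with earlier results of these data known. Genes named were S100a10, the 15 with the largest differences in each direction, the 3 most different members of each of 46 lists and any 2-fold member against its list's direction, and a fixed set of markers (of which Drd2, Xist and Pecam1 were under the limit, and Ddx3y was not found). The text gives a part of these, and other genes were named after their values were seen. Alternatives were the filter, a pseudocount of 16, centring, probe set type, fold and leaving out each array. The arrays' number limits the precision. The titles call the replicates biological but do not say which animals each array held, and the technical part of the spread was not tested.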

Additional observations from a re-analysis of the deposited data

Results flagged for a closer look

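S100a8, a calcium-binding protein of neutrophils, was the only analysed list member with differences of at least 2-fold and opposite sign in the treatments. It read 52.0 and 27.5 in FLX replicates 1 and 2 and 15.6 in FLX replicate 3, a difference of -1.28. It read 44.6 and 47.2 in VEH replicates 1 and 2 and 109 in VEH replicate 3, a difference of 1.25. The difference between treatments was not tested, the values lie near the limit of analysis, and 4 of 22200 probe sets met the same description, all of them lower in FLX and higher in VEH.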

How the results depend on the processing

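Of 196 list medians recomputed for the 14 lists with a median of at least 1 in size, 151 moved by less than the SD of the list's level over the arrays of replicates 1 and 2, and 1 reversed. The leptomeningeal, interferon and lysosomal medians stayed within that SD under each alternative run. With no filter the medians were -0.24 for pericytes and smooth muscle, -0.89 for endothelium, -1.01 for microglia, -0.12 for border macrophages, 0.81 for myelinating oligodendrocytes, -0.82 for thalamic neurons, 0.04 for choroid plexus (reversed from -1.25), -0.15 for collagens, -0.27 for laminins and integrins and -1.01 for S100 and annexin genes. More dim genes enter there by construction. With a minimum of 100 they were -2.36 for border macrophages, 0.81 for myelinating oligodendrocytes, -0.64 for choroid plexus, -2.53 for collagens and -2.04 for S100 and annexin genes. With equal weight of replicate 3 and the others they were -0.64 for choroid plexus and -1.79 for collagens. With a pseudocount of 16 they were -0.95 for endothelium, -0.98 for microglia and -1.05 for border macrophages. Centring gave 1.27 for myelinating oligodendrocytes and -1.01 for thalamic neurons. Without probe sets of the x_at, s_at and a_at types they were -2.38 for pericytes and smooth muscle, -1.45 for endothelium, -1.68 for border macrophages, 0.81 for myelinating oligodendrocytes, -2.21 for antigen presentation and -1.29 for S100 and annexin genes. The mean of a gene's probe sets gave 1.30 for myelinating oligodendrocytes, -0.59 for thalamic neurons and -2.67 for antigen presentation, and the most different probe set gave 1.30 for myelinating oligodendrocytes. For these moves the cause was not tested.

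Leaving out each array in turn gave 1107 to 2390 probe sets higher, with 1 replicate 3 array left at the upper end. It gave medians of -3.40 to -2.62 for pericytes and smooth muscle, -1.67 to -1.07 for endothelium, -1.59 to -0.91 for microglia, -1.42 to -0.85 for border macrophages, 0.60 to 1.22 for myelinating oligodendrocytes, -1.29 to -0.61 for choroid plexus, -1.80 to -1.10 for collagens and -1.62 to -0.92 for laminins and integrins. At 1.5-fold 3539 probe sets were higher, at 4-fold 82 were higher and 1105 lower, and by brightest probe set 617 genes were higher and 2015 lower. The medians by location of the product, added after seeing the data, ran from -0.89 to -0.40 for secreted or membrane products and from 0.90 to 1.11 for cytosolic or nuclear ones. No paired analysis was possible because the replicate number is itself the comparison and no test was run. Each treatment has 1 replicate 3 array, so its spread is unknown, and values under 50 lie near the background of the array.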
